A study of Rattus norvegicus with 14 samples.

Results

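The day-night difference of the rat body as a whole was followed in 2 pools of mixed tissue, collected at zeitgeber time 19 (ZT19, mid-night, lights off) and at ZT7 (mid-day, lights on). Each pool came from 3 Sprague-Dawley rats of 6 to 8 weeks, housed under a cycle of 14 h light to 10 h dark, with no further treatment or genetic change stated. RNA was extracted tissue by tissue and combined in equal amounts from 6 parts of the central nervous system (spinal cord, hindbrain, midbrain, hypothalamus, cerebellum and cortex), the retina, 2 endocrine glands (adrenal gland and pituitary), the small intestine, skeletal muscle, kidney, lung, liver and heart. The pineal gland was not among these 15 tissues. The series also holds pools of 10 pineal glands or retinas at 6 times, which gives 14 libraries in all. Expression was given as FPKM (sequenced fragments per kilobase of a transcript, scaled to the total fragments of its library), summed over the transcripts of a gene ID. The ZT19 pool was set against the ZT7 pool for the 7903 of 16472 genes that had at least 5 FPKM in either pool. At this limit Pde5a (5.002 FPKM at ZT19 and 4.70 FPKM at ZT7) was just inside, and Acvr1, whose higher value was 4.9996 FPKM (ZT19), was just outside.

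Each time had 1 pool, so no difference had a replicate check, an error or a test, and each value below describes these pools. A gene was counted as higher or lower where its ZT19 and ZT7 values differed at least 2-fold. In bulk RNA from mixed tissue, less RNA of an organ or of its cells in a pool and less RNA of a gene per cell cannot be told apart.

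Daily rhythms of gene expression run in nearly every organ of a mammal. The clock is a loop in which CLOCK and BMAL1 (gene Arntl) switch on the Per and Cry genes, whose proteins then repress them, and in which REV-ERBα (gene Nr1d1) represses Arntl. Organs under its control include the liver, the adrenal cortex, whose glucocorticoid output is highest around waking, and the intestine, which follows feeding. Rats are active and feed mainly at night.

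Between mid-night and mid-day most genes of the mixed pools differed little. The genes that differed most were those of particular organs. Digestive enzymes of the pancreas were present at ZT19 and mostly at or near 0 at ZT7, and the ileal gene Fabp6 was nearly absent at ZT19. By smaller amounts, adrenal steroid genes were higher at ZT19 and lung marker genes lower. Of 8 lung markers 3 were at least 2-fold lower, but only 1 relative to the median ratio of all genes. Among clock genes, Per2 was higher and Nr1d1 lower at ZT19. Egr1, an immediate early transcription factor gene, was higher at ZT19. Most other immediate early genes compared had smaller values at ZT19 than at ZT7, but by less than 2-fold except for Junb.

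The summed FPKM was 191467 at ZT19 and 212634 at ZT7, within 152281 to 212634 over the 14 libraries, and 7278 and 7739 genes reached 5 FPKM at ZT19 and at ZT7. FPKM does not give the number of reads behind a value, so depth is unknown. The median ratio of ZT19 over ZT7 was 0.898 (log2 -0.16), so a gene at the median was listed slightly lower at ZT19. The middle 90% of genes had ratios of 0.638 to 1.22, and 7442 genes (94.2% of those compared) were within 1.5-fold of the median ratio. In all, 52 genes (0.658%) were at least 2-fold higher at ZT19 and 107 (1.35%) at least 2-fold lower. Relative to the median ratio the split turned round, with 71 higher and 63 lower. The ratios spread more among weak genes: the 5th and 95th percentiles of the log2 ratio were -1.37 and 0.64 for genes with a mean of at most 5 FPKM, and -0.64 and 0.29 between 5 and 10 FPKM. Weak genes could also pass the 5 FPKM limit through their higher pool alone. With 5 FPKM required in both pools, 23 genes were higher and 46 lower.

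**Figure D1:**
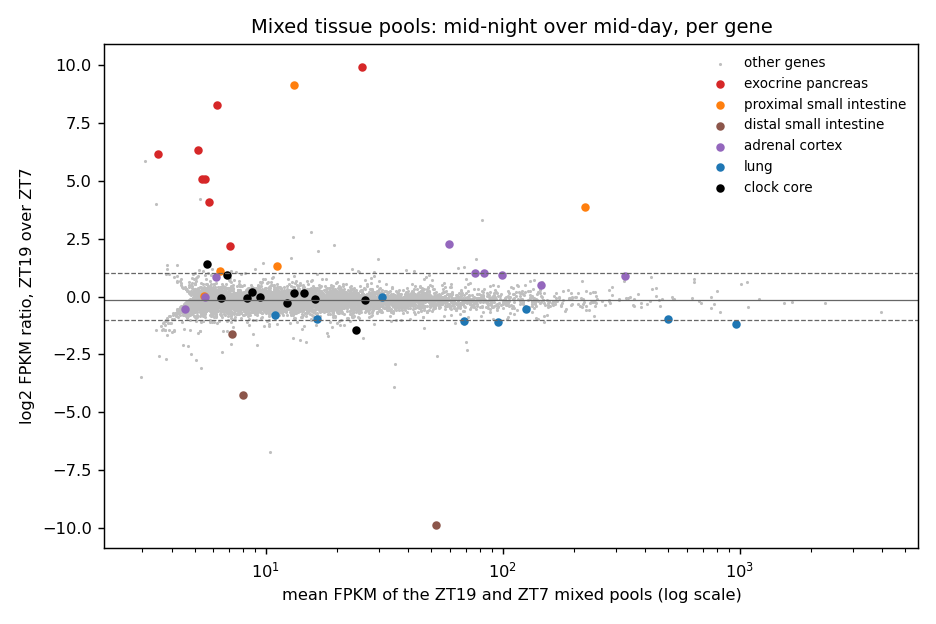
Log2 ratio of FPKM, ZT19 over ZT7, of each gene against its mean FPKM in both mixed pools (log scale); colours mark members of 6 gene groups, the solid line is the median of all genes (-0.16) and the dashed lines are 2-fold. Most genes lie close to the median line at all levels, while pancreas genes lie far above it and Fabp6 (-9.89), of the distal intestine, far below; genes listed at 0 in a pool are not drawn.

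The same ratio was taken in the retina and in the pineal gland, whose libraries came from other pools. In the retina 49 of 6606 genes were higher at ZT19 (0.742%) and 99 lower (1.5%), close to the shares in mixed tissue. In the pineal gland 277 of 6242 genes were higher (4.44%) and 273 lower (4.37%). Within 1.5-fold of their own median ratio lay 94.2% of genes in mixed tissue, 93.1% in the retina and 78.7% in the pineal gland. Mixed tissue and retina had 4 higher genes in common, which made 7.69% of the mixed and 8.16% of the retinal genes, namely Cryba2, Egr1, Kcnv2 and Pla2g1b. They had 7 lower genes in common (6.54% of the mixed and 7.07% of the retinal genes): Atp5i, Dctn3, LOC100363776, Pax4, RGD1306215, Rpl41 and Rps27. Of the 52 genes higher at ZT19 in mixed tissue, 39 (75%) were under 1 FPKM in both retina libraries, and of the 107 lower genes 65 (60.7%), against 9.63% of all genes compared.

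Marker genes of organs and cell types were then read to see which tissues the pools held. Markers of at least 5 FPKM in both pools were found for each labelled tissue (hindbrain and spinal cord sharing a list), in the hypothalamus for Pmch alone. Markers took up 174 of the genes compared, 16 of the 52 higher and 13 of the 107 lower genes. Abundant markers were Gh1 of the pituitary (3054 FPKM at ZT19, against 4887 FPKM at ZT7), Mbp of myelin (2083 FPKM at ZT19, against 2498 FPKM at ZT7), Alb of the liver (1543 FPKM at ZT19, against 1797 FPKM at ZT7) and Acta1 of skeletal muscle (1389.8 FPKM at ZT19, against 1692 FPKM at ZT7). Pineal genes were low in both, with Aanat, which makes the precursor of melatonin at night, at 0.409 FPKM at ZT19 and 0.157 FPKM at ZT7, and Asmt at 0.567 FPKM at ZT19 and 1.11 FPKM at ZT7. Against these, the list that stood farthest apart belonged to an organ not named among the 15 tissues.

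**Figure D2:**
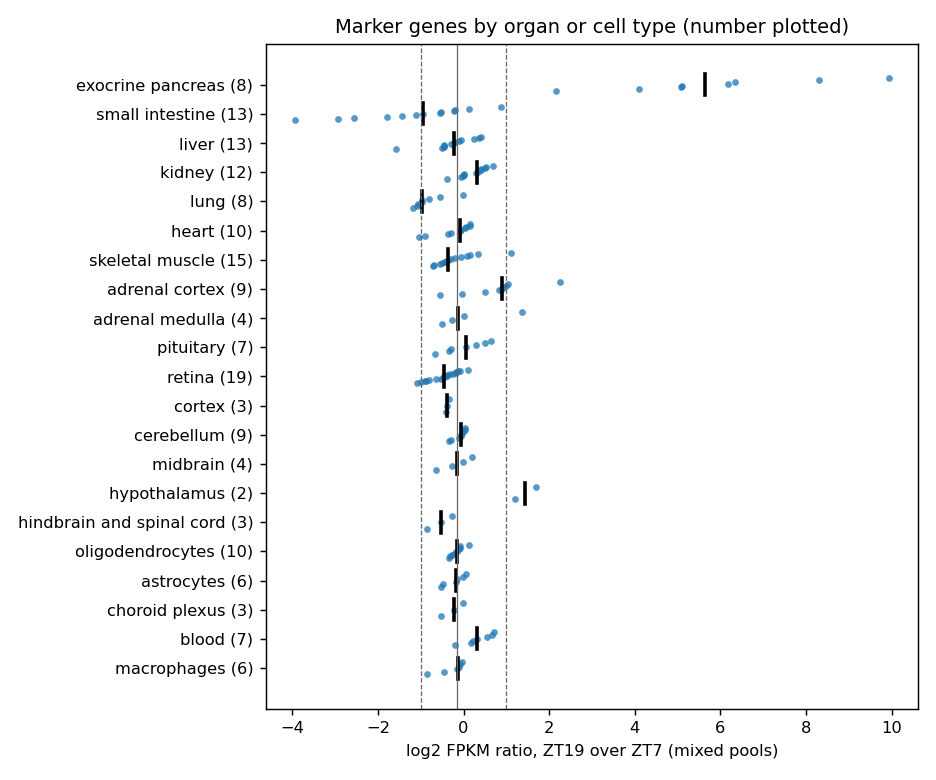
Log2 ratio of FPKM, ZT19 over ZT7, of the marker genes of each organ or cell type in the mixed pools; each point is a gene, black bars are list medians, the grey line is the median of all genes (-0.16) and dashed lines are 2-fold. Pancreas and adrenal cortex markers lie to the right, lung and many small intestine markers to the left, and cerebellum, oligodendrocyte and astrocyte markers close to the line; lists without a gene of 5 FPKM and the pancreatic Ctrb1, listed at 0 at ZT7, are not drawn.

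Exocrine pancreas, the gland that secretes digestive enzymes into the duodenum, showed the largest differences. All 9 of its markers that could be compared were at least 2-fold higher at ZT19, with a median log2 ratio of 5.64 over the 8 above 0 in both pools. The ZT7 values of all 9 were at most 2.57 FPKM, so each reached 5 FPKM only at ZT19. The count of higher markers was therefore nearly fixed by the limit, and the values themselves are the result. The summed level of the 11 markers in the table was 147 FPKM at ZT19 and 5.52 FPKM at ZT7. Prss1, a trypsinogen (gene ID 24691, rn4 chromosome 4, 69185877 to 69189080), had 51.03 FPKM at ZT19, against 0.0521 FPKM at ZT7. Ctrb1, a chymotrypsinogen (gene ID 24291, rn4 chromosome 19, 41611382 to 41616058), had 19.4 FPKM at ZT19 and was listed at 0 at ZT7. These enzymes were thus measurable at mid-night and barely or not at all at mid-day. The carboxypeptidase genes Cpb1 (12.4 against 0.0395 FPKM) and Cpa1 (10.8 against 0.313 FPKM) and the elastase genes Cela2a (10.2 against 0.125 FPKM) and Cela3b (10.9 against 0.634 FPKM) had the same order of pools, ZT19 above ZT7. Of the fat-digesting enzymes, the lipase cofactor Clps had 6.89 against 0.0955 FPKM, the lipase Cel 10.4 against 0.310 FPKM and the pancreatic lipase Pnlip 11.6 against 2.57 FPKM, again ZT19 first. The pancreatic lipase gene had the smallest ratio of the 8, 4.50. Below the 5 FPKM limit, Cela1 had 2.77 FPKM at ZT19 and 1.38 FPKM at ZT7, and the amylase gene Amy2 had 0.823 FPKM at ZT19 and was listed at 0 at ZT7. Since the ZT7 values of most of these genes lay under 1 FPKM, the size of a ratio rests on a value near 0.

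Further pancreatic genes, chosen after their values were seen, had the same pattern. The trypsin gene Prss3 had 14.8 FPKM at ZT19 and was listed at 0 at ZT7, so with Ctrb1 it was a gene of at least 5 FPKM at ZT19 with no ratio. Rnase1, a secreted ribonuclease, had 6.07 FPKM at ZT19, against 0.105 FPKM at ZT7, and Reg1a, a pancreatic secretory protein, had 10.1 FPKM at ZT19, against 0.540 FPKM at ZT7. The phospholipase gene Pla2g1b differed least (12.6 FPKM at ZT19, against 5.44 FPKM at ZT7). It was also higher at ZT19 in the retina (10.9 against 2.37 FPKM). Hormone genes of the pancreatic islets were at or near 0 in both pools: Ins1 was listed at 0 at both times, Ins2 had 0.0605 FPKM at ZT19 and was listed at 0 at ZT7, and Gcg had 0.366 FPKM at ZT19 and 0.981 FPKM at ZT7. Trypsins, elastases and Reg proteins form families of similar genes, so the split of reads among their members is uncertain. The part of pancreatic tissue in the ZT19 pool was not tested.

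The small intestine showed both directions. Of its 13 markers compared, 6 were at least 2-fold lower at ZT19 and 0 higher, with a median log2 ratio of -0.95, and the summed level of the 14 markers in the table was 223 FPKM at ZT19 and 555 FPKM at ZT7. Fabp2, the fatty acid-binding protein of enterocytes, had 15.3 FPKM at ZT19, against 90.7 FPKM at ZT7. Guca2a, which encodes the gut peptide guanylin, had 11.6 FPKM at ZT19, against 40.1 FPKM at ZT7, the vitamin A-binding protein gene Rbp2 39.5 FPKM at ZT19, against 85.98 FPKM at ZT7 and the lactase gene Lct 1.85 FPKM at ZT19, against 5.004 FPKM at ZT7. Several other enterocyte genes were closer between the pools, among them Cdh17, an intestinal cadherin (16.4 FPKM at ZT19, against 15.1 FPKM at ZT7), the brush border gene Vil1 (10.4 FPKM at ZT19, against 12.05 FPKM at ZT7) and the sucrase-isomaltase gene Si (9.01 FPKM at ZT19, against 13.2 FPKM at ZT7). An intestinal alkaline phosphatase gene, Alpi, had 17.1 FPKM at ZT19, against 9.28 FPKM at ZT7. Relative to the median ratio 5 markers were at least 2-fold lower, without Rbp2, and Alpi was at least 2-fold higher.

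The gene with the lowest ratio of all was Fabp6, the bile acid-binding protein of the ileum (gene ID 25440, rn4 chromosome 10, 28694773 to 28699442). It had 0.110 FPKM at ZT19, against 104 FPKM at ZT7. Naaladl1, a peptidase of the ileal brush border, had 0.795 FPKM at ZT19, against 15.2 FPKM at ZT7, and Ostalpha, which exports bile acids from ileal cells, had 3.55 FPKM at ZT19, against 10.8 FPKM at ZT7. The ileal bile acid uptake gene Slc10a2 was under the 5 FPKM limit, with 0.334 FPKM at ZT19 and 1.54 FPKM at ZT7. These genes belong to the distal small intestine, and each had its lower value at ZT19. Genes known from the duodenum had the opposite order. Akp3, an alkaline phosphatase of the proximal intestine (gene ID 64621, rn4 chromosome 9, 85924232 to 85927327), had 26.1 FPKM at ZT19, against 0.0454 FPKM at ZT7. S100g, which encodes the calcium-binding protein calbindin-D9k (gene ID 24249, rn4 chromosome X, 52446817 to 52449342), had 416 FPKM at ZT19, against 28.5 FPKM at ZT7. The iron exporter gene Slc40a1 had 15.9 FPKM at ZT19, against 6.35 FPKM at ZT7, and the calcium channel gene Trpv6, under the limit, had 1.16 FPKM at ZT19 and 0.346 FPKM at ZT7. Of 5 proximal genes compared, 4 were higher at ZT19 and 0 lower (0.658% of all genes were higher). Of 3 distal genes compared, 3 were lower and 0 higher (1.35% of all genes were lower). Exceptions were the duodenal iron reductase gene Cybrd1 (5.48 FPKM at ZT19 and 5.45 FPKM at ZT7) and the gut peptide gene Nts (3.34 FPKM at ZT19 and 3.83 FPKM at ZT7, under the limit). Both intestinal groups were put together after the values were seen, so these counts restate that choice. The 3 distal genes also passed the 5 FPKM limit through ZT7 alone, and Akp3 passed it through ZT19 alone. Akp3 and Alpi are similar genes whose reads may be split between them.

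Antimicrobial genes of the gut lining were lower at ZT19. Reg3g, an antibacterial lectin gene, had 4.29 FPKM at ZT19, against 65.3 FPKM at ZT7, and its relative Reg3b had 8.18 FPKM at ZT19, against 62.2 FPKM at ZT7. The defensin genes of Paneth cells, which lie at the base of the crypts, included Defa6 (2.06 FPKM at ZT19, against 10.98 FPKM at ZT7) and Defa24 (63.5 FPKM at ZT19, against 101 FPKM at ZT7), and as members of a multigene family they are uncertain. The lysozyme gene Lyz2, which is also on the macrophage list, had 172 FPKM at ZT19, against 311 FPKM at ZT7. Of 6 genes compared in this group, also chosen after the values were seen, 4 were at least 2-fold lower and 0 higher. Dmbt1, a secreted glycoprotein of mucosal surfaces, was by contrast higher at ZT19 (22.4 FPKM at ZT19, against 3.73 FPKM at ZT7). Among the lowest ratios were also Ly6al (0.197 FPKM at ZT19, against 20.6 FPKM at ZT7), the ubiquitin-like gene Ubd (0.493 FPKM at ZT19, against 5.47 FPKM at ZT7) and Tmigd1 (1.76 FPKM at ZT19, against 7.65 FPKM at ZT7). These 3 genes were each under 0.1 FPKM in both retina libraries.

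Nutrient uptake genes of the gut, 9 of which were compared, had 0 higher and 2 lower members and a median log2 ratio of -0.55, against -0.16 for all genes. The lower members were Lct and the peptide transporter gene Slc15a1 (2.47 FPKM at ZT19, against 6.57 FPKM at ZT7). The lipoprotein genes Apoa4 (61.8 FPKM at ZT19, against 119.7 FPKM at ZT7) and Apob (15.5 FPKM at ZT19, against 25.1 FPKM at ZT7) stayed within 2-fold. Slc5a1, the glucose transporter of the brush border, had 6.06 FPKM at ZT19, against 7.32 FPKM at ZT7, and Anpep, a brush border peptidase, 39.997 FPKM at ZT19, against 44.6 FPKM at ZT7. The uptake genes therefore had ZT19 values below the ZT7 values, by differing amounts, in the same pools in which the intestinal regions differed.

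Steroid genes of the adrenal cortex were higher at ZT19. Of 9 cortical markers compared, 3 were at least 2-fold higher and 0 lower, with a median log2 ratio of 0.90 (relative to the median ratio 5 were higher, Star and Cyp21a1 being added) and a summed level of 1054 FPKM at ZT19 and 557 FPKM at ZT7. Cyp11b1, the enzyme of the last step to corticosterone (gene ID 500892, rn4 chromosome 7, 112977395 to 112984080), had 98.04 FPKM at ZT19, against 20.5 FPKM at ZT7. Hsd3b1, which converts pregnenolone to progesterone, had 102 FPKM at ZT19, against 50.003 FPKM at ZT7, and the aldose reductase gene Akr1b7 had 111 FPKM at ZT19, against 55.3 FPKM at ZT7. Just under 2-fold were Star, the protein that brings cholesterol into mitochondria (130.2 FPKM at ZT19, against 68.2 FPKM at ZT7), and the 21-hydroxylase gene Cyp21a1 (426 FPKM at ZT19, against 228 FPKM at ZT7). The side-chain cleavage gene Cyp11a1 had 169 FPKM at ZT19, against 119.6 FPKM at ZT7, and Nr5a1, the transcription factor SF-1, 7.88 FPKM at ZT19, against 4.42 FPKM at ZT7. Not all cortical genes followed: Mc2r, the ACTH receptor, had 5.46 FPKM at ZT19, against 5.57 FPKM at ZT7, and Cyp11b2, the aldosterone synthase gene of the outer zone, had 3.69 FPKM at ZT19, against 5.40 FPKM at ZT7. Cyp11b1 and Cyp11b2 are similar genes, as are Hsd3b1 and Hsd3b, whose annotated spans overlap, so their values are not independent.

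In the wider list of steroidogenesis genes, 5 of 13 compared were higher at ZT19 and 0 lower (7 and 0 relative to the median ratio), with the same median of 0.90. The additional members were Scarb1, the receptor that takes up cholesterol from high-density lipoprotein (116 FPKM at ZT19, against 37.8 FPKM at ZT7), and Fdx1, the mitochondrial electron carrier ferredoxin (33.2 FPKM at ZT19, against 15.9998 FPKM at ZT7). Its partner Fdxr had equal values (32.4 FPKM at ZT19, against 32.4 FPKM at ZT7). Scarb1 was also expressed in the retina, at 86.96 FPKM at ZT19 and 68.8 FPKM at ZT7. Genes of sulfation and oxidation that share this direction were noted after the values were seen. They included the sulfotransferase genes Sult2al1 (27.04 FPKM at ZT19, against 3.89 FPKM at ZT7) and Sult2a1 (15.7 FPKM at ZT19, against 6.66 FPKM at ZT7), and ste2 (14.3 FPKM at ZT19, against 5.26 FPKM at ZT7). Papss2, which makes the sulfate donor, had 26.4 FPKM at ZT19, against 6.69 FPKM at ZT7, and the flavin monooxygenase gene Fmo2 had 31.9 FPKM at ZT19, against 6.71 FPKM at ZT7. Of adrenal medulla markers 1 of 4 compared was higher, namely Dbh, the enzyme that makes noradrenaline (5.50 FPKM at ZT19, against 2.14 FPKM at ZT7). The chromaffin granule genes Chgb (132 FPKM at ZT19, against 132 FPKM at ZT7) and Chga (71.8 FPKM at ZT19, against 102 FPKM at ZT7) were not. Chga (24.7 and 26.5 FPKM) and Chgb (30.5 and 37.8 FPKM) were also expressed in the retina at ZT19 and ZT7.

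Lung markers were lower at ZT19. Of 8 compared, 3 were at least 2-fold lower and 0 higher, with a median log2 ratio of -0.97, and their sum was 1185 FPKM at ZT19 and 2441 FPKM at ZT7. The airway secretory gene Scgb1a1 had 593 FPKM at ZT19, against 1345 FPKM at ZT7, and the surfactant gene Sftpb had 60.8 FPKM at ZT19, against 129.5 FPKM at ZT7. Ager, a marker of flat alveolar cells, had 44.3 FPKM at ZT19, against 92.9 FPKM at ZT7. Sftpc (335 FPKM at ZT19, against 659 FPKM at ZT7) and the tight junction gene Cldn18 (11.1 FPKM at ZT19, against 21.7 FPKM at ZT7) came close to 2-fold, while Napsa, a protease gene of alveolar cells, had 31.02 FPKM at ZT19, against 31.1 FPKM at ZT7. Nkx2-1, a transcription factor of lung epithelium, had 3.69 FPKM at ZT19, against 7.95 FPKM at ZT7, the airway gene Scgb3a2 1.03 FPKM at ZT19, against 6.58 FPKM at ZT7 and the elastin gene Eln 23.5 FPKM at ZT19, against 117 FPKM at ZT7. These 3 genes are outside the lung list and were picked by their ratios. Of the 8 lung markers, 7 lay below the median ratio of all genes, but relative to that median only Scgb1a1 was at least 2-fold lower (1 of 8, without Sftpb and Ager).

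Other organs differed less. Kidney markers had a median log2 ratio of 0.32 (0 of 12 compared past 2-fold), heart -0.08 (0 higher and 1 lower of 10), liver -0.22 (0 higher and 1 lower of 13) and skeletal muscle -0.36 (1 higher and 0 lower of 15). The lower heart gene was Nppb, a natriuretic peptide (3.56 FPKM at ZT19, against 7.34 FPKM at ZT7; under 2-fold relative to the median ratio), beside a cardiac troponin gene, Tnnt2, with 218 FPKM at ZT19, against 197 FPKM at ZT7. The lower liver gene was Apoa2, a lipoprotein gene (9.14 FPKM at ZT19, against 27.2 FPKM at ZT7). In muscle, the fast myosin gene Myh1 had 57.8 FPKM at ZT19, against 26.9 FPKM at ZT7, while the other fast myosin gene Myh4 had 184 FPKM at ZT19, against 249 FPKM at ZT7 and the slow troponin gene Tnni1 6.03 FPKM at ZT19, against 9.65 FPKM at ZT7. Kidney genes Slc34a1, the phosphate transporter of the proximal tubule (64.7 FPKM at ZT19, against 45.9 FPKM at ZT7), and Kl, which encodes klotho (8.69 FPKM at ZT19, against 5.38 FPKM at ZT7), lay above the tubular gene Umod (48.5 FPKM at ZT19, against 48.01 FPKM at ZT7) in their ratios.

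Brain and glial markers stayed within 2-fold, except in the hypothalamus. Medians of the log2 ratio were -0.05 for cerebellum (9 compared), -0.14 for midbrain (4), -0.39 for cortex (3), -0.52 for hindbrain and spinal cord (3), -0.16 for oligodendrocytes (10) and -0.17 for astrocytes (6). The list of the choroid plexus, which is not itself named among the 15 tissues, had -0.23 (3). Of its genes, Ttr had 755 FPKM at ZT19, against 760.3 FPKM at ZT7. In the retina Ttr had 46.9 FPKM at ZT19 and 86.3 FPKM at ZT7, and Otx2, also on the list, 113 and 122 FPKM. The Otx2 level of the pools (12.9 FPKM at ZT19 and 15.2 FPKM at ZT7) can therefore not be assigned to choroid plexus. For Ttr the retinal level was far below that of the pools, and the tissues its RNA came from were not tested. In the hypothalamus, which controls feeding, sleep and water balance, Pmch, the gene of melanin-concentrating hormone, had 19.5 FPKM at ZT19, against 6.05 FPKM at ZT7. Avp, the vasopressin gene, had 8.26 FPKM at ZT19, against 3.59 FPKM at ZT7. Both were thus at least 2-fold higher at ZT19, but Avp passed the 5 FPKM limit through ZT19 alone. Under the limit, Hcrt, the orexin gene of the lateral hypothalamus, had 4.73 FPKM at ZT19 and 2.59 FPKM at ZT7 and Oxt, the oxytocin gene, 3.48 FPKM at ZT19 and 1.77 FPKM at ZT7. The 10 hypothalamus markers in the table summed to 39.9 FPKM at ZT19 and 18.7 FPKM at ZT7. Pmch, Avp, Hcrt and Oxt made up most of this. The other markers, all under the limit, summed to less at ZT19 than at ZT7. Peptide genes that are also expressed outside it, Npy (16.8 FPKM at ZT19, against 18.5 FPKM at ZT7), Sst (17.9 FPKM at ZT19, against 22.8 FPKM at ZT7) and Cartpt (14.999 FPKM at ZT19, against 23.3 FPKM at ZT7), stayed within 2-fold. Of 5 hypothalamic peptide genes compared, 2 were higher and 0 lower. No other brain list had a member past 2-fold.

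Hormone genes of the pituitary, 6 of which were compared, had 0 members past 2-fold and a median log2 ratio of -0.12. Growth hormone, Gh1, had the highest share of a pool's summed FPKM, 1.59% at ZT19 and 2.30% at ZT7. Prolactin, Prl, had the opposite order, with 1314 FPKM at ZT19, against 836 FPKM at ZT7. Pomc, the precursor of ACTH, had 314 FPKM at ZT19, against 399 FPKM at ZT7, and Tshb, of thyrotropin, 102 FPKM at ZT19, against 84.04 FPKM at ZT7. The genes thus split, 3 above and 3 below the median ratio.

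Blood and immune markers were read because all organs carry them. Globin genes were somewhat higher at ZT19, with Hbb at 1206 FPKM at ZT19, against 826 FPKM at ZT7 and Hba-a2 at 866 FPKM at ZT19, against 738 FPKM at ZT7, and the 7 blood markers compared had a median log2 ratio of 0.31. Macrophage markers had -0.12 (6 compared), with C1qa at 27.96 FPKM at ZT19, against 28.8 FPKM at ZT7. The most abundant of them, the lysozyme gene Lyz2, had a ratio of 0.553, and the list summed to 255 FPKM at ZT19 and 401 FPKM at ZT7. B cell markers were under 5 FPKM in both pools and summed to 0.857 FPKM at ZT19 and 3.68 FPKM at ZT7, and T cell markers to 6.56 and 8.76 FPKM. Mast cell markers summed to 3.86 and 6.26 FPKM and neutrophil markers to 12.8 and 11.1 FPKM in the ZT19 and ZT7 pools. Of 13 class I and II MHC (RT1) genes compared, 0 were higher and 4 lower at ZT19 (1.35% of all genes were lower), with a median of -0.68. Of the lower genes, RT1-EC2, RT1-CE1 and RT1-CE7 passed the 5 FPKM limit through ZT7 alone. Relative to the median ratio RT1-EC2 did not reach 2-fold (log2 -0.91). RT1-Bb, a class II gene, had 12.4 FPKM at ZT19, against 28.7 FPKM at ZT7, and reads of these similar genes may be shared. The chemokine genes Ccl6 (1.71 FPKM at ZT19, against 7.21 FPKM at ZT7) and Ccl5 (2.26 FPKM at ZT19, against 5.24 FPKM at ZT7) were lower as well. By contrast 0 of 7 interferon response genes were past 2-fold, with a median of 0.08 and Isg15 at 7.67 FPKM at ZT19, against 6.43 FPKM at ZT7, and 0 of 12 acute phase genes, with a median of -0.12 and Crp at 49.2 FPKM at ZT19, against 82.9 FPKM at ZT7.

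The retina offered a check, since it is 1 of the 15 tissues and has libraries of its own. Its 21 markers with at least 5 FPKM in both retina libraries stood in the mixed pools at a median of 9.52% (ZT19) and 11.0% (ZT7) of their retinal FPKM, against 6.67% for an equal part of 15. The lowest was 6.41% and the highest 17.0% at ZT19, and 6.50% and 17.6% at ZT7. At both times the highest was that of Gnb1. With each library scaled to the same sum, the medians were nearer to an equal part, 7.62% at ZT19 and 9.27% at ZT7. Of the 19 retina markers compared in mixed tissue, 0 were at least 2-fold higher and 2 lower, namely Guca1a and Nrl, and relative to the median ratio of all genes 0 were at least 2-fold lower. Gnat1, the transducin subunit gene of rods, had 300.01 FPKM at ZT19, against 318 FPKM at ZT7 in mixed tissue, with 2869 and 3169 FPKM in the retina at ZT19 and ZT7. The median ratio of these markers, ZT19 over ZT7, was 0.728 in mixed tissue and 0.846 in the retina, and 19 and 16 of the 21 were below 1. Nrl, a transcription factor of rods, had 10.3 FPKM at ZT19, against 20.6 FPKM at ZT7 in mixed tissue, but 161 and 157 FPKM in the retina. As log2 these medians are -0.46 in mixed tissue, where the median gene had -0.16, and -0.24 in the retina, where the median gene had -0.27. Retinal markers thus lay below the median gene in mixed tissue and close to it in the retina.

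**Figure D3:**
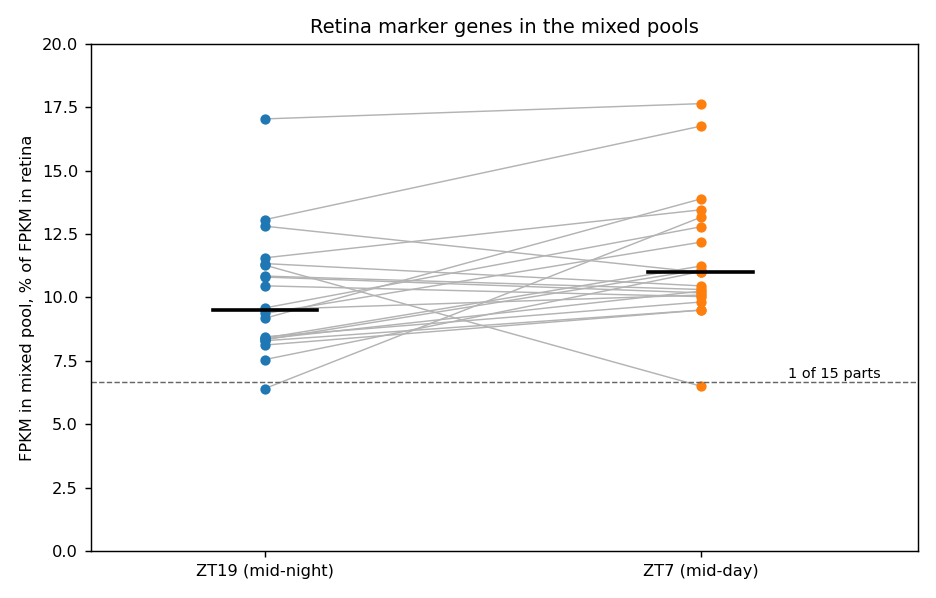
FPKM of retina marker genes in the mixed pool as a percentage of their FPKM in the retina library of the same time, at ZT19 and ZT7; each point is 1 of 21 genes, grey lines join the same gene, black bars are medians and the dashed line is 1 of 15 equal parts (6.67%). The medians are 9.52% at ZT19 and 11.0% at ZT7, and most genes lie above the dashed line at both times.

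Genes with over 20 FPKM in a retina library and a difference of at least 2-fold in mixed tissue could be set against it. Egr1 (gene ID 24330, rn4 chromosome 18, 27343919 to 27346117) had 44.9 FPKM at ZT19, against 14.6 FPKM at ZT7 in mixed tissue. In the retina it had 299 FPKM at ZT19 and 4.19 FPKM at ZT7, and 1 of 15 parts of these is 19.9 and 0.279 FPKM. The mixed difference of 30.2 FPKM stands beside 19.6 FPKM for such a part. Retina markers stood at medians of 9.52% (ZT19) and 11.0% (ZT7) of their retinal FPKM, above the 6.67% of 1 of 15 parts. What is left beyond such a part is therefore not a measure of what came from other tissues. For Kcnv2, a potassium channel subunit of photoreceptors, the pools had 10.1 FPKM at ZT19, against 4.83 FPKM at ZT7, a difference of 5.30 FPKM, and 1 of 15 retinal parts differed by 4.39 FPKM. Cryba2, a crystallin, had 5.33 FPKM at ZT19, against 2.36 FPKM at ZT7 in mixed tissue and 231 and 85.6 FPKM in the retina. Its mixed difference was 2.96 FPKM, and 1 of 15 retinal parts differed by 9.67 FPKM. Of the other higher genes in this comparison, Scarb1 differed by 78.2 FPKM in mixed tissue, against 1.21 FPKM for such a part, and Slc4a7 by 4.86 FPKM, against 0.829 FPKM. Mixed and retinal sizes thus differed little for Kcnv2 and widely for Scarb1. Retina-expressed genes lower at ZT19 in both kinds of library included Pax4, a paired-box factor (1.84 against 5.81 FPKM in mixed tissue, 22.2 against 53.3 in the retina, ZT19 first). Guca1a, a calcium sensor of guanylate cyclase, had 11.9 FPKM at ZT19, against 25.4 FPKM at ZT7 in mixed tissue and 142 against 247 FPKM in the retina. Fscn2, a photoreceptor actin-bundling protein, had 1.04 FPKM at ZT19, against 6.07 FPKM at ZT7 in mixed tissue, and 17.8 and 34.2 FPKM in the retina. The lens crystallin gene Crygc had 541 FPKM at ZT19 and 21.3 FPKM at ZT7 in the retina, and 1.35 FPKM at ZT19 and 0.303 FPKM at ZT7 in the mixed pools, and the lens and pigment epithelium list summed to 11.0 FPKM at ZT19 and 5.30 FPKM at ZT7.

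Core clock genes were mostly close between mid-night and mid-day, and 2 of the 12 compared were past 2-fold. Their median log2 ratio was -0.03, and 10 of the 12 lay above the median ratio of all genes. Per2, a repressor of the loop (gene ID 63840, rn4 chromosome 9, 90645342 to 90687509), had 8.19 FPKM at ZT19, against 3.09 FPKM at ZT7, a ratio of 2.65. Nr1d1 (gene ID 252917, rn4 chromosome 10, 87541246 to 87548186) had 13.02 FPKM at ZT19, against 35.01 FPKM at ZT7, a ratio of 0.372. Next was the repressor gene Cry1, with 9.03 FPKM at ZT19, against 4.73 FPKM at ZT7, a ratio of 1.91 that did not reach 2-fold as listed but exceeded it relative to the median (log2 1.09). Per2 and Cry1 thus had their higher values at night, and Nr1d1 had its higher value by day.

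Sequence before the start sites of 3 clock genes is shown, because Per2 and Nr1d1 are the members past 2-fold and Arntl is the target of Nr1d1. Windows reach from 250 bases before to 50 bases after an annotated start (RefSeq, GRCr8), read in the direction of the gene. Capitals mark matches to an E-box (CACGTG, bound by CLOCK and BMAL1), a D-box (TTATGTAA or TTACGTAA, bound by DBP and NFIL3) or a ROR element (TAGGTCA, bound by ROR proteins and REV-ERBα), searched on both strands.
Nr1d1, chr10:84229405-84229704, minus strand, E-box at -191: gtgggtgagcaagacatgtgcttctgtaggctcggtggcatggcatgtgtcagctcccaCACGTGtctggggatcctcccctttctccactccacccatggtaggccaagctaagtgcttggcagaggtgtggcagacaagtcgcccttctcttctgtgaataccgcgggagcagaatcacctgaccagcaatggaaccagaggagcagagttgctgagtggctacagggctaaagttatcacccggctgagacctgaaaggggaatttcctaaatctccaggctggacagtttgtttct
Per2, chr9:99496944-99497243, minus strand, D-box at -192: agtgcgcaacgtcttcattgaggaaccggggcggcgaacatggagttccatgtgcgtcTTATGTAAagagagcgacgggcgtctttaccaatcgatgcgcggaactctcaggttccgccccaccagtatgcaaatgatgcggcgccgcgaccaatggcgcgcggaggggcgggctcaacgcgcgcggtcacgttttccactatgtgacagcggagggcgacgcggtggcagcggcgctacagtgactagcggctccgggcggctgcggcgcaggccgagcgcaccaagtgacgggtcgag
Arntl, chr1:176766078-176766377, plus strand, ROR element at -16: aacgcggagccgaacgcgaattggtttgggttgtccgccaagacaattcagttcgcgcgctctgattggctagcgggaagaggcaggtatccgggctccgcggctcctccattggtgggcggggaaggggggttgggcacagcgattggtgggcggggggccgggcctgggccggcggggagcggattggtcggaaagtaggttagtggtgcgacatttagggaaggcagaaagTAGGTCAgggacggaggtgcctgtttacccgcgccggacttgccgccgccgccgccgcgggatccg
Nr1d1 has another annotated start, whose window held no match. The window of the clock output gene Dbp was also read, held no match and is not shown. Of 33469 windows in the table, 6.42% held an E-box, 1.01% a D-box and 2.63% a ROR element (7.08%, 1.09% and 2.83% of 27457 genes). Of 13 core clock genes with a window, 3 held an E-box (Bhlhe40, Nr1d1 and RGD1566380), 1 a D-box (Per2) and 1 a ROR element (Arntl), and of 8 clock output genes 2 held an E-box (Lonrf3 and Tef) and 1 a ROR element (Leo1). A match is a run of letters and was not shown to be a bound site.

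The other core genes stayed near their mid-day values. Among repressors, Per1 had 9.41 FPKM at ZT19, against 9.52 FPKM at ZT7, Per3 9.31 FPKM at ZT19, against 8.14 FPKM at ZT7 and Cry2 15.5 FPKM at ZT19, against 16.7 FPKM at ZT7. Of the activators, Arntl had 8.16 FPKM at ZT19, against 8.53 FPKM at ZT7 and Clock 6.37 FPKM at ZT19, against 6.58 FPKM at ZT7. The kinase genes that act on PER proteins, Csnk1d (24.9 FPKM at ZT19, against 27.4 FPKM at ZT7) and Csnk1e (13.8 FPKM at ZT19, against 12.5 FPKM at ZT7), were also close, as was the repressor gene Bhlhe40 (15.4 FPKM at ZT19, against 13.7 FPKM at ZT7). Under the limit were Npas2 (3.05 FPKM at ZT19 and 4.54 FPKM at ZT7), Rora (4.20 FPKM at ZT19 and 4.73 FPKM at ZT7), Timeless (1.56 FPKM at ZT19 and 1.25 FPKM at ZT7) and RGD1566380, now named Ciart (2.58 FPKM at ZT19 and 2.85 FPKM at ZT7). Of clock output genes, 0 of 8 compared were past 2-fold, with a median log2 ratio of 0.09. Dbp, a transcription factor gene driven directly by CLOCK and BMAL1, came closest, with 13.8 FPKM at ZT19, against 25.6 FPKM at ZT7 (ratio 0.539). Pdk4, a kinase gene that restrains glucose oxidation, had 3.91 FPKM at ZT19, against 6.84 FPKM at ZT7, the cell cycle kinase gene Wee1 5.02 FPKM at ZT19, against 3.79 FPKM at ZT7 and Nfil3, a repressor at D-boxes, 7.53 FPKM at ZT19, against 6.07 FPKM at ZT7. Tef, a relative of Dbp, had 27.8 FPKM at ZT19, against 27.6 FPKM at ZT7, Usp2, a ubiquitin protease, 9.54 FPKM at ZT19, against 8.40 FPKM at ZT7, Tspan4 11.6 FPKM at ZT19, against 10.4 FPKM at ZT7 and Leo1 11.6 FPKM at ZT19, against 12.3 FPKM at ZT7. Upp2 (0.143 FPKM at ZT19 and 0.166 FPKM at ZT7) and Lonrf3 (1.79 FPKM at ZT19 and 1.50 FPKM at ZT7) were under the limit.

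**Figure D4:**
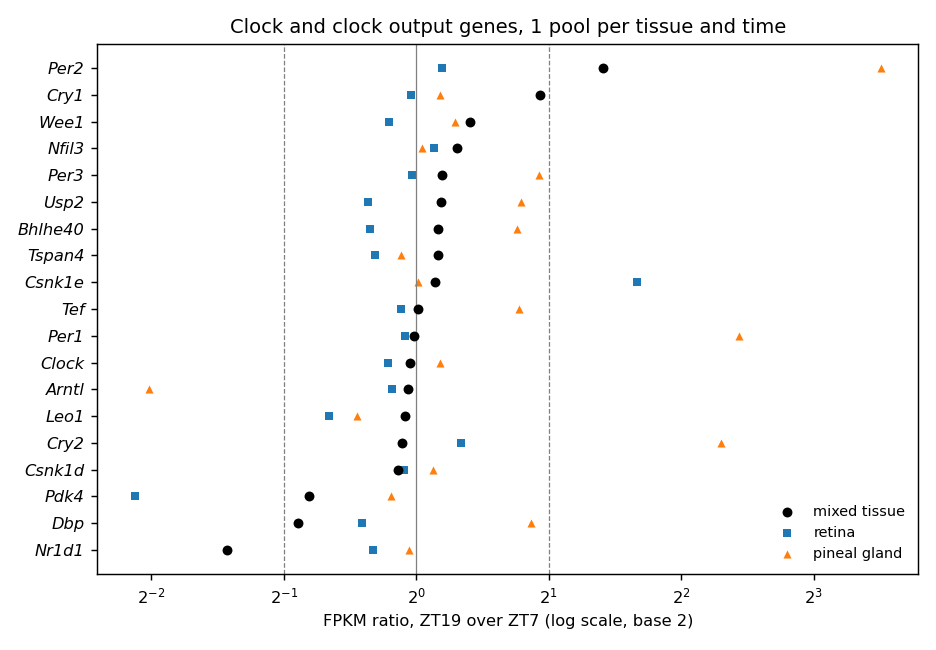
FPKM ratio, ZT19 over ZT7, of clock and clock output genes in mixed tissue (black circles), retina (blue squares) and pineal gland (orange triangles), 1 pool per tissue and time, on a log axis; 1 core gene is not drawn, genes run from the highest to the lowest mixed ratio and dashed lines are 2-fold. Per2 is at 2.65 and Nr1d1 at 0.372 in mixed tissue, while Per1 (5.41), Cry2 (4.93) and Arntl (0.247) are far from 1 in the pineal gland alone.

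Set beside the pineal gland and the retina, the mixed pools had an order of their own. Nr1d1 had a ratio of 0.372 in mixed tissue, 0.798 in the retina and 0.961 in the pineal gland. Over the 6 times its level ran from 12.2 to 68.8 FPKM in the pineal gland, highest at ZT13, and from 46.1 to 64.8 FPKM in the retina, highest at ZT7, so ZT19 and ZT7 can miss a peak. Per2 had ratios of 2.65, 1.15 and 11.4 in mixed tissue, retina and pineal gland. Per1 and Cry2, at 0.988 and 0.929 in mixed tissue, had 5.41 and 4.93 in the pineal gland. Arntl, at 0.956 in mixed tissue, had 0.247 there. Csnk1e had 1.10 in mixed tissue and 3.17 in the retina. Differences between these tissues were not tested, since each ratio rests on 1 pool per time.

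Immediate early genes, which respond within minutes to stimuli, mostly had smaller values at ZT19 than at ZT7, by less than 2-fold. Of 12 compared, 1 was at least 2-fold higher (Egr1) and 1 lower, and their median log2 ratio was -0.70, with 10 of the 12 below the median ratio of all genes. The lower gene was Junb, an AP-1 subunit, with 13.2 FPKM at ZT19, against 27.5 FPKM at ZT7, which relative to the median ratio did not reach 2-fold (log2 -0.91). Its relative Fos had 9.47 FPKM at ZT19, against 16.5 FPKM at ZT7, Jund 22.2 FPKM at ZT19, against 36.5 FPKM at ZT7 and Jun 29.9 FPKM at ZT19, against 34.9 FPKM at ZT7. Ier2 (9.50 FPKM at ZT19, against 15.96 FPKM at ZT7), Klf4 (5.55 FPKM at ZT19, against 9.08 FPKM at ZT7) and the neuronal gene Arc (3.38 FPKM at ZT19, against 5.85 FPKM at ZT7) also had lower values at night, whereas the nuclear receptor gene Nr4a1 had 23.02 FPKM at ZT19, against 18.3 FPKM at ZT7. In the retina the same genes had other ratios, with Fos at 47.02 FPKM at ZT19 and 3.78 FPKM at ZT7. Fos and Junb thus had opposite orders in mixed tissue and retina, while Egr1 was higher at ZT19 in both.

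Heat shock and endoplasmic reticulum chaperone genes, which help proteins fold, had 0 of 21 compared past 2-fold and a median log2 ratio of 0.10, and 16 of them lay above the median ratio. Hspa5, the main chaperone of the endoplasmic reticulum, had 157 FPKM at ZT19, against 129.9 FPKM at ZT7, and the mitochondrial Hspd1 25.8 FPKM at ZT19, against 19.5 FPKM at ZT7. The small heat shock gene Hspb1 had the lowest ratio of the 21, with 10.5 FPKM at ZT19, against 20.5 FPKM at ZT7. Also 21 of the list's genes, not all of them compared, had a promoter window. Heat shock elements (searched on both strands) stood in the windows of 5 of these, against 0.794% of all genes with a window. These genes were Dnaja1, Hspa8 (under the limit), Hspd1, Hspe1 and Hsph1. Hspd1 and Hspe1 are neighbours on chromosome 9, so the same element may be counted for both, which was not checked. A cAMP element (TGACGTCA) stood in 1 (Hsp90ab1), against 2.0% of genes, and an E-box in 2 (Dnajb9 and Hsph1), against 7.08%. The cold-inducible RNA-binding protein genes, whose levels go up when temperature goes down, were lower at ZT19 by less than 2-fold, with Rbm3 at 17.1 FPKM at ZT19, against 28.6 FPKM at ZT7 and Cirbp at 20.4 FPKM at ZT19, against 32.3 FPKM at ZT7. Rbm3 had the same order in the retina (12.2 against 30.9 FPKM) and in the pineal gland (6.21 against 13.4 FPKM), ZT19 first. Cirbp did not share this: it was nearly even in the retina (84.4 against 88.1 FPKM) and had the opposite order in the pineal gland (53.0 against 44.9 FPKM).

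Among metabolic lists few members reached 2-fold. Bile acid and drug metabolism genes had 0 higher and 2 lower of 10 compared, and a median log2 ratio of -0.22. Cyp7a1, the rate-limiting enzyme of bile acid synthesis, had 7.24 FPKM at ZT19, against 3.79 FPKM at ZT7 (at least 2-fold higher relative to the median ratio), while Cyp8b1, which sets the share of cholic acid, had 2.06 FPKM at ZT19, against 5.95 FPKM at ZT7. These liver enzymes of a common pathway thus lay on opposite sides of 1. Cyp1a2, a drug-metabolizing enzyme of liver, had 42.3 FPKM at ZT19, against 94.9 FPKM at ZT7 and the male-type Cyp2c11 25.8 FPKM at ZT19, against 42.8 FPKM at ZT7.

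Gluconeogenesis and sugar use genes had 0 of 11 past 2-fold, but 10 of the 11 lay above the median ratio of all genes, with a list median of 0.22. Pck1, which commits to glucose production in liver and kidney, had 63.6 FPKM at ZT19, against 33.7 FPKM at ZT7 (at least 2-fold higher relative to the median ratio), and Fbp1, a later step, 67.9 FPKM at ZT19, against 45.2 FPKM at ZT7. Ppp1r3b, which directs glycogen storage, had 5.92 FPKM at ZT19, against 4.12 FPKM at ZT7, and the glycolytic regulator Pfkfb3 4.70 FPKM at ZT19, against 7.32 FPKM at ZT7. Fatty acid synthesis genes had 0 of 12 past 2-fold and a median of 0.07, with the liver desaturase gene Scd1 at 62.6 FPKM at ZT19, against 38.1 FPKM at ZT7, the lipogenic gene Thrsp at 32.4 FPKM at ZT19, against 19.997 FPKM at ZT7 and the elongase gene Elovl6 at 12.3 FPKM at ZT19, against 8.78 FPKM at ZT7. Cholesterol synthesis genes had 0 of 20 past 2-fold and a median of -0.10, with Mvd, of the mevalonate pathway, at 7.89 FPKM at ZT19, against 12.8 FPKM at ZT7. Both lists were thus close to even.

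Fasting and fatty acid oxidation genes had 0 of 13 past 2-fold and a median of -0.16, equal to that of all genes. Cyp4a1, which oxidizes fatty acids, had 6.03 FPKM at ZT19, against 3.99 FPKM at ZT7, the mitochondrial carrier gene Ucp2 54.6 FPKM at ZT19, against 77.7 FPKM at ZT7 and the lipase inhibitor gene Angptl4 3.68 FPKM at ZT19, against 5.03 FPKM at ZT7. Amino acid stress genes had 0 of 8 past 2-fold and a median of -0.16, with the stress factor gene Atf5 at 15.3 FPKM at ZT19, against 28.6 FPKM at ZT7 and Cth, of cysteine synthesis, at 16.5 FPKM at ZT19, against 29.9 FPKM at ZT7. Glucocorticoid response genes had 0 of 12 past 2-fold and a median of 0.04. Fkbp5, a cochaperone induced by glucocorticoids, had 6.09 FPKM at ZT19, against 5.43 FPKM at ZT7, Tsc22d3 34.4 FPKM at ZT19, against 29.2 FPKM at ZT7 and Tat, a liver enzyme they induce, 10.6 FPKM at ZT19, against 8.23 FPKM at ZT7. The inhibitor of NF-κB, Nfkbia, had 14.5 FPKM at ZT19, against 23.9 FPKM at ZT7 and the phosphatase gene Dusp1 19.3 FPKM at ZT19, against 27.5 FPKM at ZT7. Cell division genes were mostly under the limit, with 0 of 3 compared past 2-fold and Pcna at 15.004 FPKM at ZT19, against 15.2 FPKM at ZT7.

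**Figure D5:**
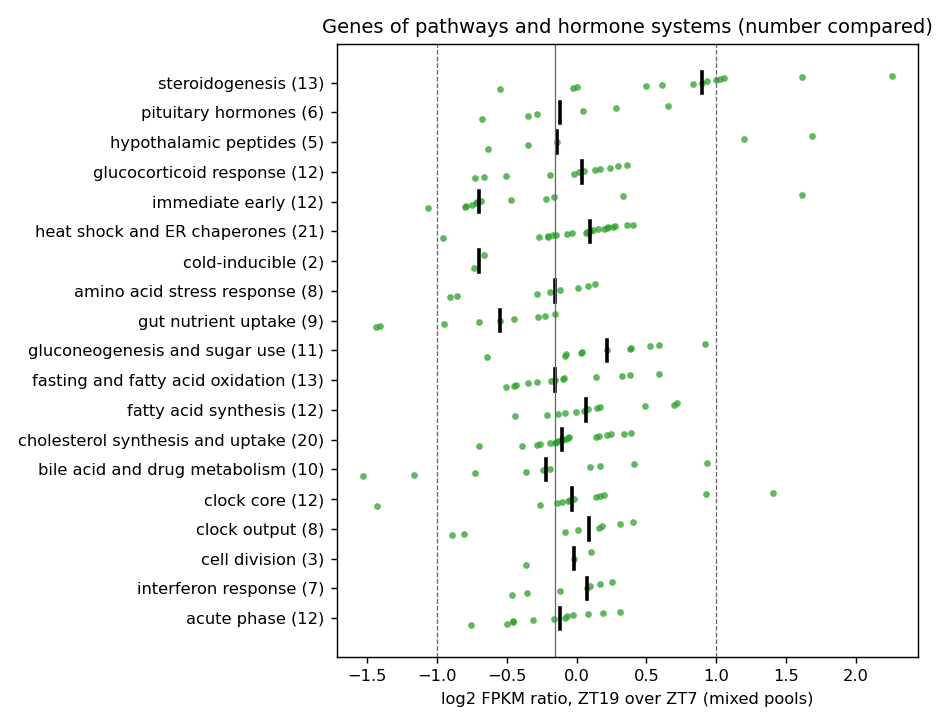
Log2 ratio of FPKM, ZT19 over ZT7, of the genes of pathways and hormone systems in the mixed pools; each point is a gene, black bars are list medians, the grey line is the median of all genes (-0.16) and dashed lines are 2-fold. Steroidogenesis lies farthest to the right (median 0.90), immediate early (-0.70) and cold-inducible genes (-0.70) farthest to the left, and chaperone, cholesterol and fatty acid lists close to the line.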

How the data were processed

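Polyadenylated RNA of the pooled extracts was fragmented, copied with random primers and sequenced as paired ends on an Illumina HiSeq, per the labels' protocols. Per the submitters' processing notes, Cufflinks 1.2.0, TopHat 1.3.1 and build rn4 were used. The deposited values were FPKM per transcript, made by the authors. How strand and reads of similar genes were handled is not given in the sources used here. Overlapping and similar genes are therefore uncertain. FPKM carry no depth.

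FPKM of 16932 transcripts were summed per gene ID (16472 genes, 342 with several transcripts; 11 transcripts without a gene ID kept their own identifiers). Ratios are plain ZT19 over ZT7, without pseudocount, in Python 3.11.15 with pandas 2.3.3, numpy 2.4.6 and matplotlib 3.10.9, tested on simulated data. A gene at 0 in a pool was counted and given no ratio. With 1 pool per time there was no test. Table starts count from 0 (99.5% of 1196 olfactory receptor transcripts are then whole codons, and 0.167% if counted from 1) and had 1 added.

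Members were matched by symbol over 20 pathway and 30 marker lists: 28 marker and 19 pathway entries were not matched, among them all members of a list of sex-linked genes. Named genes were the 15 largest and 15 smallest ratios outside marker lists, all clock genes, the 4 members farthest from 1 of each other pathway list and the 3 most abundant markers per list; others were named after their values were seen. The members and lists were chosen with earlier results of these data known, and 5 further groups after the ratios were seen. Alternatives were other pseudocounts, filters, scalings, folds, single transcripts and leaving out markers. Some genes that these rules name are counted with their lists but not reported here by name.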

Additional observations from a re-analysis of the deposited data

Results flagged for a closer look

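Junb, an AP-1 transcription factor gene, had its lower value at ZT19 in mixed tissue and its higher value at ZT19 in the pineal gland and the retina. The log2 ratio, ZT19 over ZT7, was -1.06 in mixed tissue (13.2 FPKM at ZT19, against 27.5 FPKM at ZT7), 1.92 in the retina (18.9 against 4.995 FPKM) and 1.39 in the pineal gland (10.8 against 4.12 FPKM). Slc15a1, the peptide transporter gene of the intestine, had a log2 ratio of -1.41 in mixed tissue (2.47 FPKM at ZT19, against 6.57 FPKM at ZT7). In the pineal gland it was 8.57 (270.03 FPKM at ZT19 and 0.708 FPKM at ZT7). Each tissue had 1 pool per time, so these differences between tissues were not tested.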

How the results depend on the processing

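The number of genes past 2-fold depended on the filter and the fold, as their construction implies. With at least 1 FPKM in either pool 121 genes were higher and 266 lower at ZT19, with at least 20 FPKM 21 and 37, with at least 5 FPKM in both pools 23 and 46, and without a filter 337 and 571. At 1.5-fold 132 were higher and 538 lower, and at 4-fold 20 and 18. Setting the median ratio to 1 left 63 lower, quantile normalization 60 and an equal sum per pool 64, against 107, while the higher genes then numbered 71, 72 and 70, against 52. A pseudocount of 0.1 or 1, single transcripts in place of sums and leaving out marker genes each kept both counts within 1.5 times. No gene past 2-fold that the naming rules above selected changed direction under an alternative. Of 46 such genes 2 came under 2-fold with the median ratio set to 1, and 5 others passed it. Genes named outside these rules are not in this count. Of them, Sftpb, Ager, Nppb, Nrl, Guca1a and Nkx2-1 also came under 2-fold with the median ratio set to 1. List medians between -0.16 and 0 change sign once the median ratio is set to 1, so no direction is given for them. The exocrine pancreas median was 3.16 as log2(FPKM + 1), against 5.64, and the small intestine median -1.79 with at least 20 FPKM, against -0.95. No paired analysis was possible because each time had 1 pool, and no pool could be left out. What depth limits is unknown, since FPKM give no read counts, and ratios against values near 0 are the least certain.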

Other observations

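Several very short transcripts differed between the pools. The ribosomal protein genes Rps27 (1.49 FPKM at ZT19, against 8.20 FPKM at ZT7) and Rpl41 (3.45 FPKM at ZT19, against 14.9 FPKM at ZT7) and the ATP synthase subunit gene Atp5i (28.2 FPKM at ZT19, against 112 FPKM at ZT7) were at least 2-fold lower at ZT19. The same order of ZT19 and ZT7 was found in the retina and the pineal gland. In the retina Rps27 had 1.17 against 7.52 FPKM, Rpl41 2.56 against 9.05 and Atp5i 10.5 against 60.8, ZT19 first. In the pineal gland they had 2.07 against 3.78, 1.93 against 7.87 and 42.1 against 82.3. The other times did not follow light and dark. Pineal values were highest at ZT15, after lights off, with Rps27 at 5.20, Rpl41 at 13.8 and Atp5i at 112 FPKM. Retinal values were highest at ZT7 but far lower at ZT1 and ZT13, also with lights on (Atp5i 14.2 and 16.1 FPKM). A day-night difference of these genes was therefore not shown. In mixed tissue the ribosomal protein genes Rps29 (7.15 FPKM at ZT19, against 3.25 FPKM at ZT7) and Rpl37a-ps1 (53.8 FPKM at ZT19, against 23.99 FPKM at ZT7) were higher at ZT19. Of 44 ribosomal protein genes compared, 2 were higher and 2 lower, with a median log2 ratio of -0.10. Over all genes, the median log2 ratio was -0.26 for genes that span at most 1500 bases and -0.11 for those over 20000 bases in mixed tissue, and -0.42 and -0.23 in the retina.

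Collagen genes, 16 of which were compared, had 0 members past 2-fold and a median log2 ratio of -0.27. Genes of the 15 smallest ratios not described above were Spon2, an extracellular matrix protein (2.75 FPKM at ZT19, against 11.5 FPKM at ZT7), and Fam111a (1.12 FPKM at ZT19, against 9.52 FPKM at ZT7). Of the 15 largest, LOC691352 had 148 FPKM at ZT19, against 15.1 FPKM at ZT7 and Ugt1a2, a glucuronosyltransferase gene, 6.09 FPKM at ZT19, against 2.38 FPKM at ZT7. Fat markers, of which 2 were compared, had a median log2 ratio of 0.20, with Fabp4 at 29.5 FPKM at ZT19, against 22.5 FPKM at ZT7.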
